A study of Mus musculus with 2 samples.

Results

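The genes described here encode Rab GTPases, Vps proteins, sorting nexins (Snx), TRAPP subunits (Trappc) and COPI coat subunits (Cop), which move vesicles and cargo between the membranes of the cell. Members were the protein-coding genes of a RefSeq gene table (GRCm38.p6, the assembly behind mm10) whose symbol was Rab, Vps, Snx or Trappc followed by a number, or started with Copa, Copb, Copg, Cope or Copz. The rule found 157 of 21887 protein-coding genes: 69 Rab, 35 Vps, 30 Snx, 15 Trappc and 8 Cop. Of the 69 Rab symbols, 59 were GTPases and 10 were interacting or regulatory proteins such as Rab3gap1. One Vps symbol, Vps72, is known as a chromatin protein despite its name. YY1 binding was measured in mature adipocytes, freed with collagenase from inguinal white fat (iWAT) of male wild type C57 mice aged 8 to 10 weeks. One library came from mice raised at room temperature and 1 library from mice given 7 days of cold stress. Both used an anti-YY1 antibody. The labels name the assay ChIP-seq, but their protocol describes CUT&Tag, in which a transposase bound to the antibody cuts and tags nearby DNA in native nuclei. Entries of the room temperature list have a 30 in their names and cold entries a 4, with a meaning not given in the sources used here, so that the baseline is named here as the labels name it. With 1 library per condition, no difference between conditions has a replicate check and no p-value was computed. The labels do not say how many mice gave each library. In bulk libraries such as these, fewer cells with YY1 at a site and less YY1 per cell cannot be told apart.

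Rab proteins are small GTPases that mark a membrane and recruit the proteins that move, tether and fuse vesicles there. TRAPP complexes switch Rab proteins on, the COPI coat buds vesicles that return from the Golgi to the endoplasmic reticulum, and sorting nexins and Vps complexes sort cargo on endosomes and tether them to lysosomes. In adipocytes this traffic carries, among other cargo, the glucose transporter GLUT4 to the cell surface after insulin. YY1 is a zinc finger protein that binds an ATGGC core and can activate or repress its targets.

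After cold stress, 20 of the 157 genes had a YY1 summit inside the gene or at most 1 kb from either of its ends (12.7%, exact 95% Clopper-Pearson interval 7.96 to 19). The background was 6.42% of all protein-coding genes. At room temperature 5 of the 157 had one (3.18%, 1.04 to 7.28), beside a background of 0.864%. The 20 genes of the cold list were Rab1a, Rab1b, Rab3gap1, Rab4b, Rab7, Rab10, Rab13, Rab22a, Rab24, Rab28 and Rab30, Vps11, Vps16, Vps33a, Vps35l and Vps52, and Snx5, Snx13, Snx17 and Snx27. The room temperature list held Rab5a, Rab28, Vps11, Vps33a and Vps35l. Of these 5, all but Rab5a were in both lists. The members were chosen with earlier results of these data known, so these intervals are a description and not a test of enrichment. The interval of the cold share lies above its background. That of the room temperature share does so only with Rab5a, whose q was above 0.05: with entries of q at most 0.05 the count was 4 of 157 (2.55%, 0.698 to 6.39), an interval that includes the background of 0.841%. With gene ends alone the cold count was 19, beside a background of 5.64%. The members were not matched with other genes on expression, and their median length of 27.6 kb was above the 17.2 kb of all protein-coding genes. The part of length or expression in the counts was not tested.

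The Rab, Vps and Snx families had like shares after cold, and the Trappc and Cop genes of the naming rule had no listed peak. The shares were 11 of 69 Rab genes (15.9%, 8.24 to 26.7), 5 of 35 Vps genes (14.3%, 4.81 to 30.3) and 4 of 30 Snx genes (13.3%, 3.76 to 30.7). As a description, the Rab interval lies above the 6.42% of all protein-coding genes, and the Vps and Snx intervals include it. None of the 15 Trappc genes and none of the 8 Cop genes had a summit in either list. The intervals for these zeros reach 21.8% and 36.9%, so they include both that background and the cold shares of the other families, and with so few genes the families could not be told apart. Another COPI subunit gene, Arcn1, falls outside the naming rule and had a cold peak with 20 fragments, so the Cop zero does not cover the whole coat. At room temperature the Vps family had 3 of 35 genes (8.57%, 1.8 to 23.1), the Rab family 2 of 69 (2.9%, 0.353 to 10.1) and the Snx family 0 of 30 (up to 11.6%). Beside the background of 0.864%, again as a description, the Vps interval lies above it and the Rab and Snx intervals include it. With a −log10 q of at least 3 the Vps count was 2 of 35 (5.71%, 0.7 to 19.2), and that interval includes its background of 0.74%. No member without a cold peak had a cold summit between 1 kb and 3 kb away. The nearest ones lay 4432 bp outside Copa, the gene of the alpha subunit of COPI, and 4631 bp outside Vps72, and both were nearer to another gene, Pex19 and Pip5k1a. Just inside the rule, the cold summit of Snx13 lay in the gene, 1098 bp from its end.

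**Figure D1:**
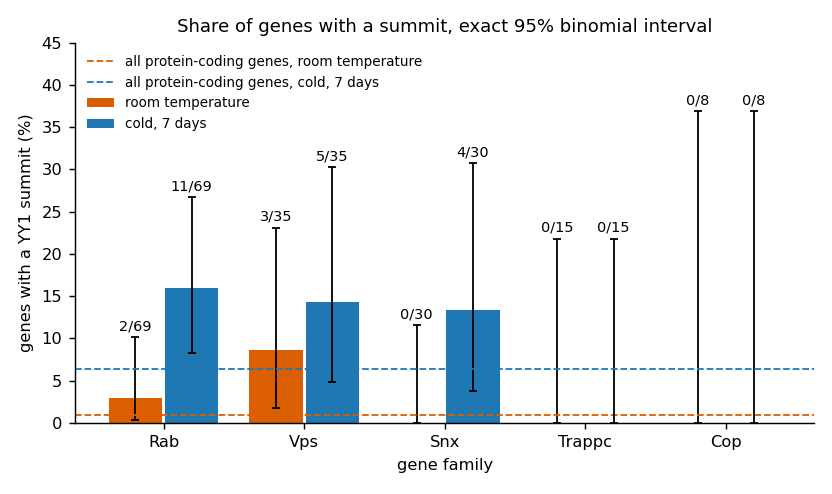
Share of genes (%) with a YY1 summit in each family, room temperature in orange and cold in blue, with exact 95% intervals, the counts above them, and dashed lines at the share of all protein-coding genes. Rab, Vps and Snx stand at 15.9%, 14.3% and 13.3% after cold, and Trappc and Cop at 0 with intervals that reach 21.8% and 36.9%.

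Within the Vps genes, 3 of the 7 subunits of the HOPS and CORVET tethers, which join endosomes to each other and to lysosomes, had a cold peak. These were Vps11, Vps16 and Vps33a, all part of the core that both tethers share, while Vps18, Vps39, Vps41 and Vps8 had none within the rule. Vps35l, the large subunit of the retriever complex that recycles cargo from endosomes, had a peak in both lists, and its partner Vps26c had none. Vps52 was the one bound gene among the 5 subunits of the GARP and EARP tethers, which receive vesicles at the Golgi and on recycling endosomes. None of the 4 retromer genes, the 9 ESCRT genes with Vps names and the 4 Vps13 lipid transfer genes had a peak. This grouping into complexes was made after the peaks were known, and the groups are too small for their shares to be set against each other.

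Promoter sequence was not used to choose the members. RefSeq promoter windows of GRCm38.p6, from 250 bases before to 50 bases after a start of transcription, were matched for 118 of the 157 members (146 windows). They were searched on both strands for AANATGGC, an extended form of the YY1 core, with no mismatch. Of the 19 member windows with a cold summit within 1 kb of the start, 9 held the motif (47.4%, 24.4 to 71.1). Of the 127 without such a summit, 1 did (0.787%, 0.0199 to 4.31). Over all protein-coding promoters the shares were 45.2% of 1227 windows with a cold summit (42.3 to 48) and 4% of 20036 windows without (3.73 to 4.28). The member promoters thus had shares whose intervals include those of all promoters, with or without a summit. Over all 21263 windows the share was 6.37%. With 1 window per gene, 9 of 16 member genes with a cold summit held the motif (56.2%, 29.9 to 80.2) and 1 of 102 without (0.98%, 0.0248 to 5.34). A match is a string of letters and was not tested as a binding site.

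**Figure D2:**
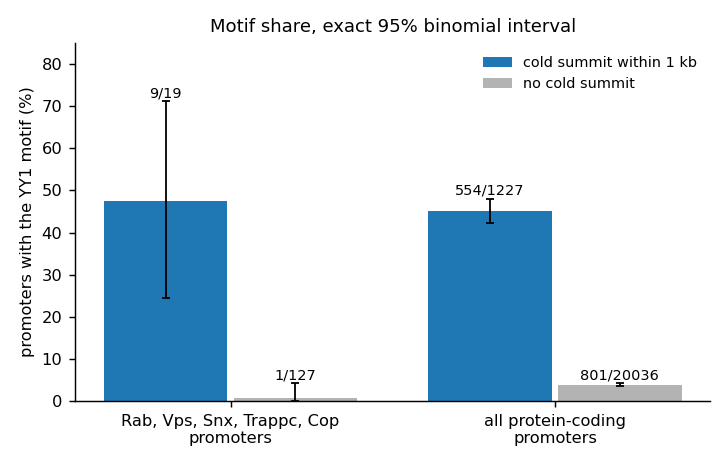
Share of promoter windows (%) that hold AANATGGC, for windows with a cold YY1 summit within 1 kb (blue) and without (grey), with exact 95% intervals and counts. Among the member promoters 9 of 19 windows with a summit and 1 of 127 without held the motif, beside 45.2% and 4% of all protein-coding promoters.

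The 9 member genes that had the motif in the window and a cold summit within 1 kb of the start carried 11 matches. They are shown as the matches found in the searched windows, and bases outside these windows were not searched. Each is read on the strand that gives AANATGGC, 5′ to 3′, with the 8 matching bases in capitals (GRCm38.p6).
Rab1a, chr11:20201425-20201450, minus strand: tcgcttccacccAAAATGGCcgccgg
Rab3gap1, chr1:127868797-127868822, plus strand: gctccgctccgcAAGATGGCggcgga
Rab7, chr6:88045381-88045406, minus strand: gcacagccttcaAAGATGGCagcccc
Rab7, chr6:88045349-88045374, plus strand: atctggggcttaAATATGGCcgtttc
Rab13, chr3:90213709-90213734, minus strand: gaagaccttccgAAGATGGCgaagca
Rab22a, chr2:173659614-173659639, minus strand: tccacccgtcccAAGATGGCggcggg
Rab22a, chr2:173659854-173659879, plus strand: agctggcgtcccAAGATGGCggcggc
Rab28, chr5:41708130-41708155, minus strand: ggggaggagggcAAGATGGCggccgg
Vps33a, chr5:123572971-123572996, minus strand: gggtgcccgggcAAGATGGCggcgca
Snx13, chr12:35047197-35047222, plus strand: cgtcgctcttccAAGATGGCggcgcg
Snx17, chr5:31193294-31193319, plus strand: ttcaggcccaccAAAATGGCgagctg
The single match in a member window without a summit lay in Trappc2l, a TRAPP subunit gene, and is shown for contrast.
Trappc2l, chr8:122611646-122611671, plus strand: gcacagcctgccAATATGGCggtgtg
Of the 11 matches, 8 had a further C after any 2 bases, a longer form whose share was 33.7% of all windows with a cold summit and 1.67% of those without. The Trappc2l match did not.

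Because the windows span 300 bases around a start and were taken with a summit within 1 kb, every match lay within these distances by construction, and the positions are given as a description. Counted from the start as base 0, the match at Rab28 and the match at Rab3gap1 both began at base 36 downstream. Those of Vps33a, Rab22a (its plus strand match), Snx13, Rab1a, Snx17 and Rab13 began 31, 21, 20, 19, 2 and 0 bases downstream. The other matches began upstream, at -98 and -124 at Rab7 and at -225 at Rab22a (its minus strand match). The Trappc2l match, with no listed peak, began at base 32, within the range of the matches above. Of the 11 matches, 8 began at or after the start and 7 read in the direction of transcription. The distance from the middle of the match to the nearest cold summit had a median of 32 bp, from 6 bp at Rab7 to 314 bp at Snx17.

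Of the 20 members with a cold peak, 7 had a window without the motif: Rab1b, Rab4b, Rab10, Rab24, Vps16, Vps52 and Snx5. The windows of Rab24, Vps16 and Vps52 held the shorter core GCCAT, which is contained in AANATGGC read on the other strand and which 38.8% of all windows hold. Rab30, Snx27, Vps11 and Vps35l were not matched. Pileups did not separate by motif: the strongest summit carried 15 to 28 fragments (median 23) in the 9 members with the motif and 8 to 44 (median 20) in the 7 without.

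The rule placed member summits in the gene or within 1 kb of its ends, so their distances to starts of transcription are a description. Of the 21 summits (Rab22a had 2 in 1 interval), 17 had an annotated start of the member, and 10 of these 17 lay at or downstream of it. They ranged from -319 bp (upstream) at Rab22a to 206 bp downstream at Rab10, with 10 of the 17 within 100 bp. Over the whole cold list, 943 summits lay within 1 kb of the nearest start of any protein-coding gene. Of these, 72.1% lay at or downstream of it (69.1 to 75) and 49.8% within 100 bp. Member summits were measured to a start of their own gene, so the counts above and these shares are unlike measures. The Snx13 summit, far from the outer gene end, lay 56 bp downstream of an annotated start. Gene ends of the table are outer ends, and exons and introns could not be told apart.

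Of the 21 cold summits, 7 also reached another protein-coding gene, and so cannot be given to the member alone. These lay at Rab1b with Klc2, Rab13 with the ribosomal protein gene Rps27, Rab24 with Prelid1, Vps16 with Pced1a, Vps52 with the ribosomal protein gene Rps18, Snx5 with the mitochondrial exonuclease gene Mgme1, and Snx17 with the translation factor subunit gene Eif2b4. At Rab13, Rab24 and Snx17 the end of the other gene was nearer. The promoters of Rps27 and Eif2b4 also held AANATGGC, and so did that of Mgme1, while the window of Snx5 did not. With each summit counted for its nearest gene end, these 3 members left the list, and Rab2a, Rab3d and Vps8 entered it from over 3 kb away, so 17 of the 20 remained and the count was again 20 of 157 (12.7%), beside a background of 5.44%. At room temperature none of the 5 summits reached another protein-coding gene.

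**Figure D3:**
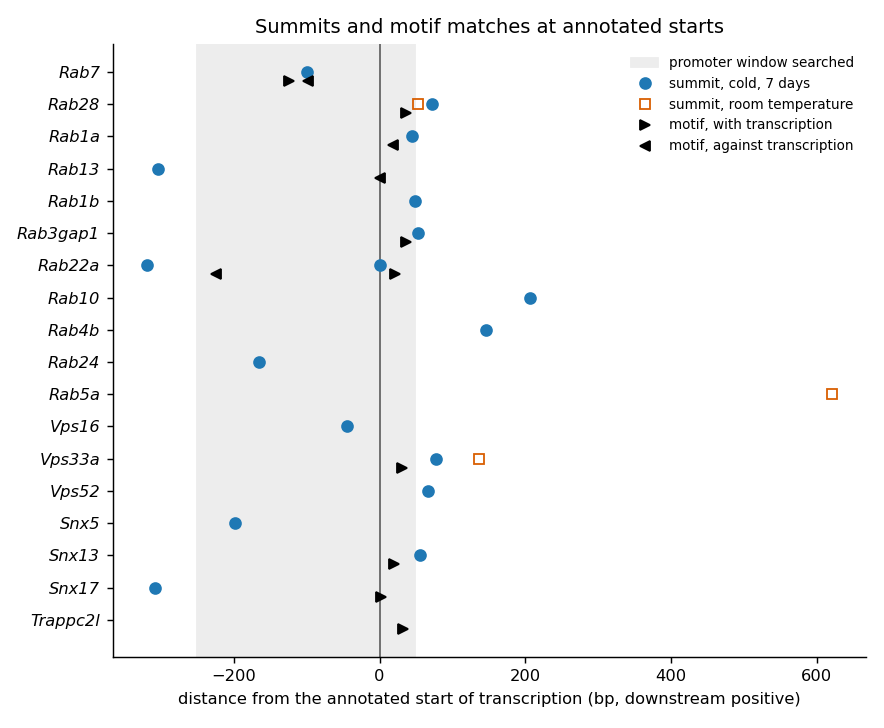
Distance (bp, downstream positive) of each summit and each AANATGGC match from the annotated start of transcription, for members with a peak and a matched promoter and for Trappc2l, with the searched window in grey. Most matches lie just after the start, Rab28 and Vps33a have summits of both libraries there, and the room temperature summit of Rab5a stands apart, 621 bp downstream.

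The number of fragments over each summit (pileup) was recovered from the authors' fold and −log10 p. Member summits carried a median of 21 fragments after cold (8 to 60), beside 20 over all 1259 cold entries. At room temperature they carried a median of 10 (6 to 16), beside 13 over all 165 entries. The medians of the members thus lay near those of each list.

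Among the Rab genes the strongest cold summit was at Rab7, whose product directs late endosomes to lysosomes, with 26 fragments (exact 95% Poisson interval 17 to 38.1), 100 bp upstream of the start (chr6:88045164-88045587). Rab28, whose product is linked to cilia, and the Golgi gene Rab30 each had 25 (16.2 to 36.9). Both genes of RAB1, which drives transport from the endoplasmic reticulum to the Golgi, were bound, Rab1a with 24 fragments (15.4 to 35.7; chr11:20201273-20201694) and Rab1b with 21 (13 to 32.1; chr19:5106761-5107067). Their intervals overlap almost fully.

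Rab13, which acts in transport to the plasma membrane, had 21 fragments (13 to 32.1). Rab3gap1, a subunit of a regulator of RAB3 and RAB18, had 16 (9.15 to 26). Rab22a, of early and recycling endosomes, had a pair of summits with 16 (9.15 to 26) and 11 fragments (5.49 to 19.7), and its matches lay 98 bp and 25 bp from the nearer of them.

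Rab10, a Rab protein of GLUT4 transport in adipocytes, had 11 fragments (5.49 to 19.7; chr12:3309638-3309888), 206 bp downstream of the start. Rab4b, of the recycling endosome, had 9 (4.12 to 17.1) and Rab24, linked to autophagy, had 8 (3.45 to 15.8). These 3, with Snx27 and the weaker Rab22a summit, were the weakest member entries of the cold list, and none of the Rab10, Rab4b and Rab24 windows held AANATGGC. Some paralogs of these genes, Rab4a for Rab4b and Rab8a and Rab8b for Rab10, had no listed peak. Rab13, described above, had one.

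Among the Vps genes Vps35l had the strongest summit of all members, with 60 fragments after cold (45.8 to 77.2; chr7:118740447-118740961), rank 67 of 1259 by p. Vps16 had 31 (21.1 to 44), Vps33a 28 (18.6 to 40.5), Vps11 22 (13.8 to 33.3) and Vps52 20 (12.2 to 30.9). The Vps35l interval lies above those of the other 4 Vps genes.

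Among the sorting nexins Snx5, a partner of retromer on tubules that leave the endosome, had 44 fragments (32 to 59.1; chr2:144270605-144271032), at the start shared with Mgme1. Snx13, known from contacts of endosomes and lipid droplets with the endoplasmic reticulum, had 23 (14.6 to 34.5). Snx17 had 15 (8.4 to 24.7), and Snx27, which returns transporters from endosomes to the cell surface, had 10 (4.8 to 18.4). The intervals of Snx5 and Snx27 do not overlap, so the family spans a wide range.

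**Figure D4:**
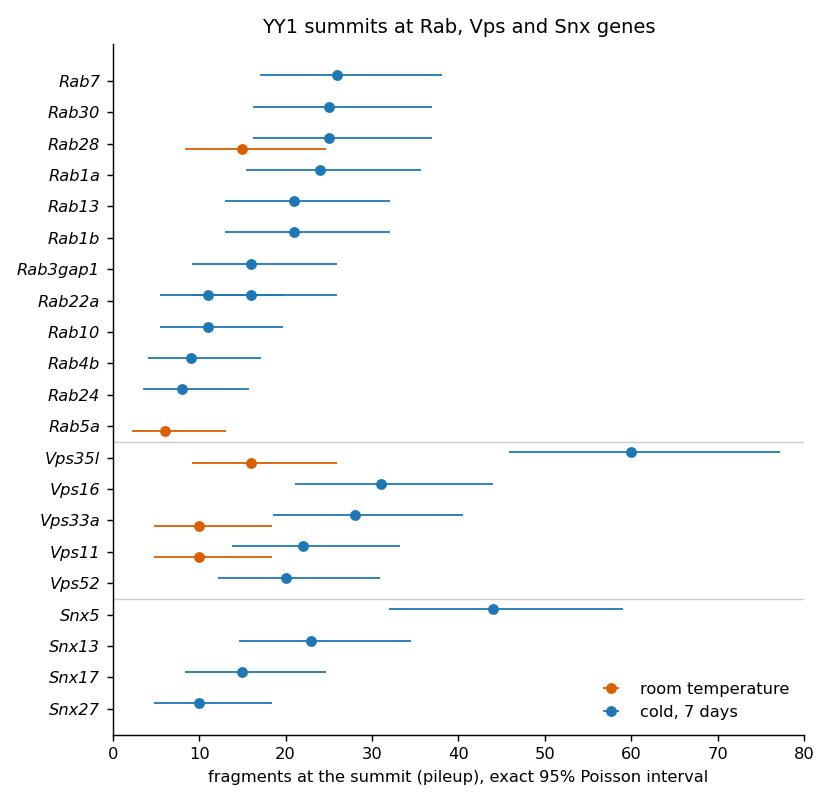
Fragments at each member's YY1 summits with exact 95% Poisson intervals, room temperature in orange and cold in blue, by family. Vps35l with 60 and Snx5 with 44 fragments lead the cold summits of the members, and Rab5a, with 6 fragments at room temperature, is the one gene without a cold point.

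Rab5a encodes the GTPase that organises fusion at early endosomes, and it was the one member listed at room temperature without a cold entry. Its peak (chr17:53479750-53480014) carried 6 fragments (2.2 to 13.1) on a background of 0.667, with a fold of 4.2. By p it ranked 165 of 165 in its list, and its q was 0.109, 1 of 9 room temperature entries with a q above 0.05. The summit lay inside the gene, 621 bp downstream of the annotated start, farther than any other member summit measured from a start. The Rab5a window held neither AANATGGC nor GCCAT, and the bases under the summit lay outside it and were not searched.

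No cold summit lay within 2676 kb of Rab5a, but a site without an entry has no value. The lowest listed cold pileup was also 6 fragments, and 13 of 1259 cold entries had 6 or fewer, so a site as weak as this one stood at the edge of listing in both libraries. The paralogs Rab5b and Rab5c had no peak in either list. The nearest cold summits were 52.2 kb outside Rab5b, nearest to Pym1, and 95.5 kb outside Rab5c, nearest to Nkiras2. With entries of q at most 0.05, the room temperature list held 4 members, without Rab5a, and each of the 4 was also in the cold list.

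The 4 members listed in both libraries all had more fragments after cold, as did all 154 peaks of both lists that stood on a background of 10 fragments or less, whose median ratio of cold to room temperature was 3.31 (quartiles 2.63 and 4.18). A shared peak had to be listed in the weaker library, so these ratios describe listed peaks alone. The cold library was estimated at 1.05 times the depth of the other.

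At Vps35l the room temperature pileup was 16 (9.15 to 26) and the cold one 60, a ratio of 3.75 (exact interval 2.13 to 6.98, counting error only). At Vps33a, whose product is the HOPS subunit that chaperones membrane fusion, it was 10 (4.8 to 18.4) and 28, a ratio of 2.8 (1.32 to 6.46). At Vps11, the HOPS core scaffold gene, it was 10 (4.8 to 18.4) and 22, a ratio of 2.2 (1 to 5.2). These 3 intervals include the median ratio of all shared peaks.

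At Rab28 the pileup was 15 (8.4 to 24.7) and 25, a ratio of 1.67 (0.845 to 3.4). Of the 154 shared peaks, 4 had a lower ratio than Rab28. Its interval includes 1 and also the median of all shared peaks, so a smaller ratio than elsewhere was not detectable at this depth. The order of these members depends on the measure. By cold over room temperature fold enrichment the ratios were 1.54 at Vps11, 2.01 at Rab28, 2.66 at Vps35l and 3.62 at Vps33a. The summits of both libraries lay 19 bp apart at Rab28, 10 bp at Vps11, 33 bp at Vps35l and 59 bp at Vps33a. At Rab28 the middle of the motif match lay 13 bp from the room temperature summit and 32 bp from the cold one, and at Vps33a the distances were 102 bp and 43 bp.

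**Figure D5:**
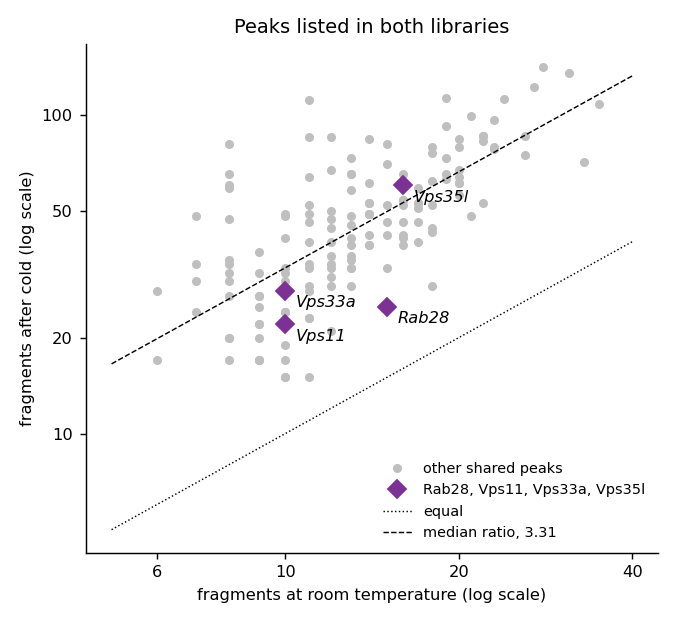
Fragments at room temperature (x) and after cold (y), both on log scales, for 154 peaks listed in both libraries, members as purple diamonds, with lines of equal pileup and of the median ratio of 3.31. Vps35l lies just above the median line at 3.75, and Rab28 lies below it at 1.67.

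Of the 21 cold entries at members, 4 were also listed at room temperature (19%, 5.45 to 41.9), beside 164 of all 1259 cold entries (13%, 11.2 to 15). The member entries in both lists had a median of 26.5 fragments after cold and the others 20, while over the whole cold list the medians were 42 and 19.

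Other genes of vesicle traffic, in 7 lists of 166 genes that hold no member, had a peak at 27 genes after cold (16.3%, 11 to 22.8) and at 3 at room temperature (1.81%, 0.374 to 5.19), against the same backgrounds of 6.42% and 0.864%. The interval of the cold share overlaps that of the members. Among 18 genes of Arf GTPases, COPI partners and cargo receptors 6 had a cold peak (33.3%, 13.3 to 59), among them Tmed10 with 41 fragments (29.4 to 55.6), Arf1, the GTPase that recruits COPI, with 25 (16.2 to 36.9), and Arcn1, the delta subunit of COPI itself, with 20 (12.2 to 30.9).

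Clathrin and adaptor genes had 7 of 35 (20%, 8.44 to 36.9), with 42 fragments at Ap1g1 (30.3 to 56.8), 39 at Ap3d1 (27.7 to 53.3) and 31 at Gga3, beside Mrps7. The summits in Ap2b1 and Ap4s1 lay 3992 bp and 10670 bp from a gene end, and that in Ap4s1 also reached Strn3. With gene ends only the count was 5 of 35 (14.3%, 4.81 to 30.3), an interval that includes its background of 5.64%. The exocyst and COG tethers had 4 of 17 (23.5%, 6.81 to 49.9), led by Exoc7, an exocyst subunit gene, with 53 fragments (39.7 to 69.3). Ap1g1, Ap3d1 and Exoc7 were also the 3 genes listed at room temperature, with 15, 14 and 14 fragments. The other tethers with a peak were Cog4, Cog1 and Exoc4. The summits at Cog4 also reached Sf3b3, and that at Cog1 also reached Slc39a11.

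SNARE fusion genes had 4 of 38 (10.5%, 2.94 to 24.8), led by Use1 with 53 fragments (39.7 to 69.3), Bnip1 with 30 and Gosr1 with 21. ESCRT genes outside the Vps names had 3 of 20 (15%, 3.21 to 37.9), which were Ubap1 with 25 fragments, Ist1 with 17 and Snf8 with 16. COPII genes had 2 of 14 (14.3%, 1.78 to 42.8), Sec23b with 40 and Sec16a with 22. The intervals of these lists overlap each other. The remaining list is not given here, and its cold share lay below the background.

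Peaks do not measure expression, so the adipocyte label could not be checked through marker levels. None of 8 adipocyte markers had a peak in either list (interval up to 36.9%). Of the marker lists of macrophages, endothelial cells, preadipocytes or fibroblasts and lymphocytes, the endothelial list had 1 gene of 8 with a cold peak, Pecam1 (12.5%, 0.316 to 52.7), and the others none. The backgrounds were 6.42% after cold and 0.864% at room temperature. Every marker interval includes its background, so these counts do not bear on cell identity.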

How the data were processed

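The submitters' processing notes name MACS2, BWA, SAMtools, DESeq2 and deepTools with mm10, their versions, settings, control and duplicate handling not given in the sources used here. Each library has its own list deposited by the authors, with a score, a fold enrichment (a linear ratio), a −log10 p-value and a −log10 q-value for each summit. All 165 and 1259 entries were used, with 1-based coordinates. Pileups were the whole numbers that fit both the deposited fold, (pileup + 1) / (background + 1), and the deposited −log10 p under a Poisson model. All were matched within 0.0002, and 1 cold entry had a second match. On simulated data 165 of 165 and 1259 of 1259 pileups, 200 of 200 planted gene ends and 200 of 200 planted motifs were found. Absolute depth is unknown. The depth ratio used the lowest background and the smallest peak width of each list. Intervals are exact at 95% and cover counting error only, and fragments may include PCR copies. Peaks were shared where they overlapped by 1 bp, each room temperature peak with its strongest cold partner. Analysis used Python 3.11.15, pandas 2.3.3, numpy 2.4.6, SciPy 1.17.1 and matplotlib 3.10.9. Named were all members with a peak, Rab5a with its paralogs, and up to 3 genes of each other list by pileup. Names beyond these were chosen after values were seen. One result of the other lists is not reported here. The members and lists were chosen with earlier results of these data known. Alternatives covered windows, thresholds, gene assignment, membership, scaling and motif.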

Additional observations from a re-analysis of the deposited data

How the results depend on the processing

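One library per condition limits every comparison, and depth limits the reading of missing peaks. No paired analysis was possible because no condition has more than 1 library. Under the alternatives run, 75 values stayed within their interval or within 1.5 times the reported count and 8 moved outside. Some of the 75 could not move, such as counts of 0 under stricter settings and the count without Vps72, which had no peak. The number of members at room temperature (5) was 3 with a −log10 q of at least 3 (background 0.74%), without Rab5a and Vps33a, and 3 when a summit had to lie within 1 kb of an annotated start, since Vps11 and Vps35l have no matched promoter. The intervals of both (0.396 to 5.48) include the backgrounds of 0.74% and 0.658%. The Rab count there moved from 2 to 1 under the first of these settings. The Vps count there fell from 3 to 2 (0.7 to 19.2) under the first and to 1 (0.0723 to 14.9) under the second. Both shares stayed within the Vps interval reported above, but their own intervals include the backgrounds of 0.74% and 0.658%. The number of members after cold (20) was 2 among the 165 strongest cold entries, Vps35l and Snx5 (1.27%, 0.155 to 4.53). That interval includes its background of 0.905%. Those entries are fewer than in the whole cold list, but the room temperature list, also of 165 entries, held 5 members. The COPII count moved from 2 to 1 with gene ends only. All member summits after cold (100%) lay within 3 kb of an end of their gene, against 95.2% within 1 kb. The share of member promoters without a summit that held the motif was 37.8% for GCCAT and 0% for the longer form, since the letters set how often a motif occurs. The limits to q at most 0.05, to annotated starts and without Vps72 were chosen after seeing the data.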

Other observations

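Over all protein-coding promoters with a cold summit within 1 kb, 627 AANATGGC matches were found in 1227 windows, 47.8% of them at or after the start of transcription (43.9 to 51.8) and 67.1% in the direction of transcription (63.3 to 70.8). In the 20036 windows without a cold summit the shares of 813 matches were 32.3% (29.1 to 35.7) and 52.3% (48.8 to 55.8). In the member windows with a cold summit they were 72.7% of 11 matches (39 to 94) and 63.6% (30.8 to 89.1). Cold summits with a motif in a promoter within 1 kb carried a median of 24 fragments (496 summits, quartiles 18 and 34) and those without a median of 18 (447 summits, quartiles 13.5 and 25). Matches in neighbouring windows can be the same bases, so these counts are not independent.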
